A study of Mus musculus with 9 samples.

Results

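Adipocytes fill the fat pad in which the mouse mammary gland grows, and a piece of mammary tumour can hold some of them. The RNA levels of 9 genes that adipocytes use were therefore followed in every tumour of the series. The 9 genes, Adipoq, Lep, Plin1, Plin4, Cidec, Cidea, Fabp4, Lpl and Pparg, were taken by their symbols from the 18484 genes that the deposited files list, as a measure of fat pad in each piece. All 9 were found, each under 1 identifier. The rule picks genes by symbol and uses no measured value, but the list was drawn up with earlier results of these data known.

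RNA-seq was available for 9 mammary tumours of BlgCre-NeuKI mice, which carry a CRE recombinase driven by the beta-lactoglobulin promoter, active in luminal cells of the gland, and an activated rat Neu knocked into the endogenous Erbb2 locus behind a Flox-STOP-Flox block. Every group therefore shared both alleles, heterozygous and on a mixed FVB/C57Bl6 background, and the ages of the mice were not given in the labels. The 5 tumours with high amplification of the Erbb2/Neu locus were adenocarcinomas of no special type, AC(NST), namely MS1163.2, MS1163.1 and MS1213.1 of virgin mice, together with the parous tumours MS1155.3 and MS1218.2. All 3 not/low-amplified tumours grew in parous mice, MS1349.1 and MS1210.1 as adenosquamous carcinomas (ASQC) and MS1166.1 as an AC(NST). The remaining tumour, MS1156.1, was a sarcoma from a parous mouse. The study set the amplification groups by genomic qPCR. It reported MS1213.1 and MS1218.2 as high by qPCR but low by digital droplet PCR. By its exome sequencing MS1213.1 was amplified and MS1218.2 was not, so the high-amplified label of these tumours depends on the method. Each tumour gave 1 library, so a value for a tumour carries no replicate error. MS1163.1 and MS1163.2 share the number that stands before the point, and the study refers to MS1163 as 1 animal. The description of the series nevertheless counts as many mice as tumours. Amplification, parity and histotype are therefore partly confounded, since each virgin tumour was high-amplified and each ASQC not/low-amplified.

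As background, white adipocytes store triglyceride in a single large lipid droplet. Perilipins and CIDE proteins coat and enlarge the droplet, lipoprotein lipase frees fatty acids from circulating lipoproteins, and the fatty acid binding protein FABP4 carries them inside the cell. The nuclear receptor PPARG drives adipocyte differentiation, and mature fat cells secrete the hormones adiponectin (Adipoq) and leptin (Lep). The mammary fat pad loses lipid as the epithelium expands in pregnancy and lactation, and refills afterwards. Adipoq, Plin1, Cidec and Lep are largely restricted to adipocytes. Fabp4, Lpl and Pparg are also used by macrophages, Fabp4 by capillary endothelium and Lpl and Plin4 by muscle, and Cidea is made by brown fat and by the lactating mammary epithelium.

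Depth ran from 12501225 to 23912429 reads on genes. The labels were first set beside marker genes. The summed level of 6 epithelial genes (Epcam, Cdh1, Krt8, Krt18, Krt19 and Cldn3) was 2248 to 3316 RPM (reads-per-million reads on genes) in high-amplified tumours. It was 4812 to 7610 RPM in not/low-amplified tumours, and 26.0 RPM for the sarcoma. Skeletal muscle genes (7 in the files, the titin gene Ttn and the muscle creatine kinase gene Ckm among them) summed to 1694 RPM in MS1163.2 and to 10651 in the sarcoma. They lay between 11.8 and 43.9 RPM in the other high-amplified tumours and between 12.8 and 48.7 RPM in not/low-amplified tumours. In MS1218.2 the 8 macrophage genes summed to 2538 RPM and the 8 endothelial genes to 936, above the other epithelial tumours, whose highest sums were 732 and 401. The methods of the study name MS1218.2 as the exception in an expression-based estimate of tumour purity.

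Adipocyte RNA differed widely between tumour pieces within each amplification group. Adipoq, Lep, Plin1, Plin4 and Cidec peaked together in MS1163.2, a high-amplified tumour. They were lowest in MS1210.1 and MS1166.1, both not/low-amplified. The remaining not/low-amplified tumour, MS1349.1, was high for all 5 of these genes. Over the 9 tumours, 7 of the 9 genes had their highest level in MS1163.2, and 5 had their lowest in MS1166.1 and 3 in MS1210.1. Levels below are normalized counts, that is reads divided by a size factor for the depth of each tumour. In bulk RNA, fewer adipocytes in a piece and less of a transcript in each adipocyte cannot be told apart.

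**Figure D1:**
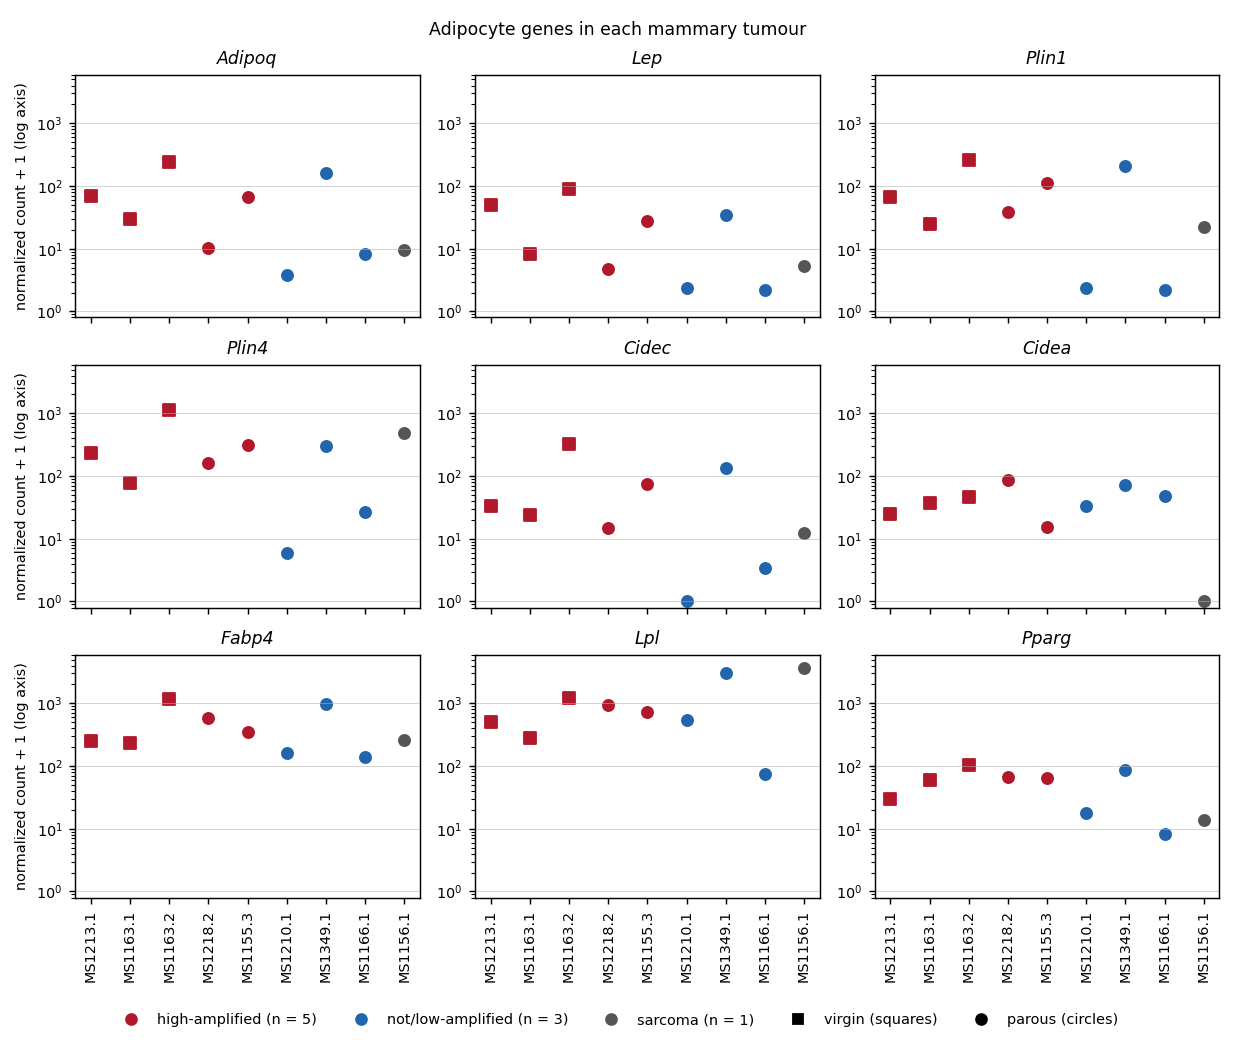
Normalized count plus 1 of each of the 9 adipocyte genes (log axis) in each of the 9 tumours, 1 point per tumour, coloured by amplification group, with squares for virgin and circles for parous mice. MS1163.2 and MS1349.1 stand high for Adipoq, Lep, Plin1 and Cidec and MS1210.1 and MS1166.1 low, whereas Cidea runs from 14.2 to 84.2 in the 8 epithelial tumours and is 0 in the sarcoma.

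Adipoq (ENSMUSG00000022878, plus strand, chr16:23146536-23158028 in GRCm38) encodes adiponectin, an adipocyte hormone that raises fatty acid oxidation and insulin sensitivity. Its normalized count was 242 in MS1163.2, 68.4 in MS1213.1, 65.7 in MS1155.3, 28.3 in MS1163.1 and 9.26 in MS1218.2, the high-amplified tumours. It was 160.0 in MS1349.1, 7.14 in MS1166.1 and 2.81 in MS1210.1, the not/low-amplified tumours. The sarcoma had 8.52. The groups overlapped, since the second highest tumour of the epithelial set was not/low-amplified and MS1218.2 lay close to MS1166.1. MS1163.2 held 8.55 times the Adipoq of MS1163.1, the tumour with the same number before the point.

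Lep (ENSMUSG00000059201, plus strand, chr6:29060220-29073877) encodes leptin, the hormone by which fat stores signal to the brain. The high-amplified tumours had 89.5 in MS1163.2, 49.1 in MS1213.1, 27.1 in MS1155.3, 7.35 in MS1163.1 and 3.70 in MS1218.2. The not/low-amplified tumours had 33.6 in MS1349.1, 1.41 in MS1210.1 and 1.19 in MS1166.1, and the sarcoma had 4.26. Only 2 reads lay behind the value of MS1210.1, 1 read behind that of MS1166.1 and 3 behind that of the sarcoma, so these 3 tumours cannot be ordered at this depth. Virgin MS1213.1 and MS1163.2 held the most Lep, and virgin MS1163.1 held less than parous MS1155.3 and MS1349.1.

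Because the levels of Adipoq and Lep moved together over the tumours, their promoters are printed, from 250 bases before to 50 bases after the start given by RefSeq on GRCm38.p6. The Adipoq window is chr16:23146286-23146585 and the Lep window is chr6:29059971-29060270, both on the plus strand. Capitals mark CCAAT on either strand in Adipoq and the palindrome TTGCGCAA, bound by C/EBP factors, in Lep.
Adipoq: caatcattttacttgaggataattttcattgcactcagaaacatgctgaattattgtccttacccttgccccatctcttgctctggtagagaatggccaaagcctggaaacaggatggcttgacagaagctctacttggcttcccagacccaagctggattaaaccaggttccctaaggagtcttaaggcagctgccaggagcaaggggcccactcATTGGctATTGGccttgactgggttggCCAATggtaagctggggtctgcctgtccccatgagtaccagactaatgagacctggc
Lep: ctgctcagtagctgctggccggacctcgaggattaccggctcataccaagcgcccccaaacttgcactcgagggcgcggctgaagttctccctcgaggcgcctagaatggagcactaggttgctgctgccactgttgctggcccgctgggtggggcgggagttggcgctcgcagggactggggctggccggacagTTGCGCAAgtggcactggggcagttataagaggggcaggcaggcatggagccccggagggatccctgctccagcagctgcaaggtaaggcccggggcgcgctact
Adipoq held CCAAT 3 times, the matches starting at positions -34, -27 and -7, with -1 the base before the start. CCAAT occurred at least once in 37.4% of 32851 mouse promoters of the same length. Lep held TTGCGCAA once, starting at -55, a string found in 0.183% of those promoters, and had no CCAAT. The windows were also scanned for AGGTCA, for AGGTCA repeated with a single base between, and for TATAAA. None of these occurred in the Adipoq or Lep window. Promoter windows matched 6 of the 9 genes (Adipoq, Lep, Plin1, Plin4, Cidec and Pparg). A letter match describes the window and does not show binding.

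Plin1 (ENSMUSG00000030546, minus strand, chr7:79720218-79732903) encodes perilipin 1, the coat protein of the adipocyte droplet that holds back lipolysis until it is phosphorylated. Its normalized counts in the high-amplified tumours were 263 for MS1163.2, 109 for MS1155.3, 66.4 for MS1213.1, 37.95 for MS1218.2 and 24.1 for MS1163.1. Among the not/low-amplified tumours MS1349.1 had 209.7, whereas MS1210.1 had 1.41 and MS1166.1 had 1.19, from 2 reads and 1 read. The sarcoma had 21.3. The second highest and the 2 lowest epithelial tumours were thus all not/low-amplified, and the groups overlapped.

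Cidec (ENSMUSG00000030278, minus strand, chr6:113424634-113435760) encodes the protein that fuses lipid droplets into a single large one. It reached 324 in MS1163.2 and 74.7 in MS1155.3, and 31.8, 23.1 and 13.9 in MS1213.1, MS1163.1 and MS1218.2. MS1349.1 had 133, MS1166.1 had 2.38 from 2 reads, and MS1210.1 had no read. Against the 3 reads that a count of 0 allows in MS1210.1, Cidec was at least 154-fold higher in MS1163.2 and at least 63.0-fold higher in MS1349.1. The last of these contrasts lay within the not/low-amplified group, between the 2 ASQC tumours. The sarcoma had 11.4.

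Plin4 (ENSMUSG00000002831, minus strand, chr17:56100591-56109803) encodes perilipin 4, which coats small new droplets in adipocytes and is also made by striated muscle. Its high-amplified values were 1116 for MS1163.2, 307 for MS1155.3, 231 for MS1213.1, 161 for MS1218.2 and 75.5 for MS1163.1. The not/low-amplified values were 299 in MS1349.1, 26.2 in MS1166.1 and 4.92 in MS1210.1. The sarcoma had 484, second to MS1163.2, although its Adipoq, Plin1 and Cidec were below the median of the 8 epithelial tumours. MS1163.2 and the sarcoma were also the 2 tumours with the most muscle RNA, and the part of muscle in their Plin4 was not tested. MS1163.2 held 14.8 times the Plin4 of MS1163.1, the widest ratio between that pair of tumours among the 9 genes.

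Cidea (ENSMUSG00000024526) encodes a droplet protein related to Cidec. It did not follow the other genes. Normalized counts were 84.2 in MS1218.2, 44.7 in MS1163.2, 36.7 in MS1163.1, 24.1 in MS1213.1 and 14.2 in MS1155.3, and 71.6 in MS1349.1, 47.6 in MS1166.1 and 32.4 in MS1210.1. The ratio of the highest to the lowest epithelial tumour was 5.95, against 86.1 for Adipoq and 227 for Plin4. MS1210.1 and MS1166.1, with at most 7.14 of Adipoq, Plin1, Lep or Cidec, lay in the middle of the Cidea range. The sarcoma, in which the epithelial genes were also near 0, had no Cidea read, and the highest epithelial tumour was at least 19.8-fold above the 3 reads that this 0 allows.

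Fabp4 (ENSMUSG00000062515, minus strand, chr3:10204088-10208576) encodes the fatty acid carrier of adipocytes. It was 1152 for MS1163.2, 591 for MS1218.2, 345 for MS1155.3, 246 for MS1213.1 and 233 for MS1163.1, and 969.5 in MS1349.1, 159.7 in MS1210.1 and 137 in MS1166.1. Unlike Adipoq or Plin1, Fabp4 kept over 100 reads in every tumour, the sarcoma included, where it had 260.0. MS1218.2 came next after MS1163.2 and MS1349.1 for Fabp4 but lay near the bottom for Adipoq. Per kilobase of exon, Fabp4 was 1.46 times Adipoq in MS1163.2, 1.86 times in MS1349.1 and 1.10 times in MS1213.1, but 19.6 times in MS1218.2 and 17.5 times in MS1210.1. All 8 macrophage and all 8 endothelial genes of the lists had their highest epithelial level in MS1218.2, and their part in its Fabp4 was not tested.

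Lpl (ENSMUSG00000015568, plus strand, chr8:68880491-68907448) encodes lipoprotein lipase. High-amplified tumours held 1202 (MS1163.2), 931 (MS1218.2), 734 (MS1155.3), 507 (MS1213.1) and 275 (MS1163.1). Not/low-amplified tumours held both the lowest and the highest epithelial levels, with 3008 in MS1349.1, 549 in MS1210.1 and 73.7 in MS1166.1. The sarcoma had 3634, the highest of the 9 tumours and 5.67 times the epithelial median. Lpl and Adipoq therefore parted most in the sarcoma, where Lpl per kilobase was 56.2 times Adipoq, against 0.654 times in MS1163.2.

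Pparg (ENSMUSG00000000440, plus strand, chr6:115360951-115490399) encodes the receptor that switches on much of the adipocyte programme. Its levels were 102 for MS1163.2, 65.7 for MS1218.2, 64.4 for MS1155.3, 58.8 for MS1163.1 and 28.9 for MS1213.1. They were 84.7 in MS1349.1, 16.9 in MS1210.1 and 7.14 in MS1166.1, and 12.8 in the sarcoma. MS1210.1 and MS1166.1 were again the lowest epithelial tumours, with a ratio of the highest to the lowest of 14.3. MS1163.2 and MS1163.1 differed by 1.73 times for Pparg and by 8.55 to 14.8 times for Adipoq, Lep, Plin1, Plin4 and Cidec.

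The 9 genes thus fell into a tight set, a looser set and Cidea. Among Adipoq, Lep, Plin1, Plin4 and Cidec, the 10 pairwise Pearson r of log2(normalized count + 1) over the 8 epithelial tumours were 0.88 to 0.97, and Spearman rho was 0.86 to 0.98. Without the 2 tumours farthest from the median of the mean profile, MS1166.1 and MS1210.1, r was 0.77 to 0.94 over 6 tumours. Fabp4, Lpl and Pparg correlated with one another at 0.80 to 0.86 and with the first 5 genes at 0.56 to 0.89, which became 0.59 to 0.87 and 0.08 to 0.78 without the 2 farthest tumours. Those looser relations rested in part on MS1166.1 and MS1210.1. Cidea had r between -0.23 and 0.42 with the other 8 genes, and rho between -0.21 and 0.33. These values describe 8 libraries, 2 of which share a mouse number, and all genes of a library share its size factor.

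**Figure D2:**
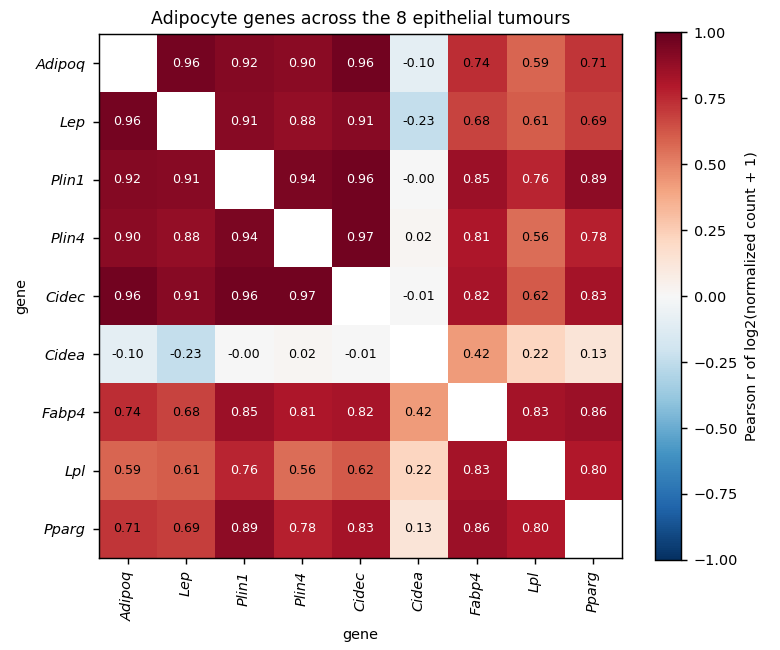
Pearson r between each pair of the 9 adipocyte genes, computed on log2(normalized count + 1) over the 8 epithelial tumours, with the colour scale running from -1 to 1. Adipoq, Lep, Plin1, Plin4 and Cidec form a block between 0.88 and 0.97, and the Cidea row lies between -0.23 and 0.42.

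Divided by exon length, Fabp4 had the highest median of the 9 genes over the epithelial tumours, 4.12 on the scale of RPM per kilobase of exon, followed by Lpl at 3.71 and by Cidea, Plin4 and Adipoq at 2.23, 2.12 and 2.10. Lep was lowest at 0.316, below Plin1 at 0.704. In MS1163.2 the order was different, with Fabp4 at 16.5, Plin4 at 12.4, Adipoq and Cidec at 11.3 each and Cidea at 2.58. In MS1210.1 only Lpl, Fabp4 and Cidea exceeded 1 on this scale, at 3.14, 2.13 and 1.74. Summed without length correction, the 9 genes made up 292 RPM in MS1163.2, 284 in MS1349.1, 239 in the sarcoma and 16.7 to 112 in the other tumours. The highest sum was 3.12 times the median of the other 8. In MS1163.2 Lpl, Fabp4 and Plin4 made up 26.5%, 25.4% and 24.6% of the sum, and in MS1349.1 60.5%, 19.5% and 6.01%. Adipoq, Lep, Plin1, Plin4, Cidec and Cidea alone summed to 134 RPM in MS1163.2, 51.9 in MS1349.1 and 2.57 in MS1210.1. That made MS1163.2 5.72 times the median of the others.

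High-amplified tumours were then compared with not/low-amplified tumours, the contrast the study used for differential expression. No gene for a hormone, droplet protein, lipid enzyme, carrier or receptor among the 9 passed the test against the spread between tumours. Plin4 had the widest difference, with a mean of 378 ± 421 (SD, n = 5) in high-amplified and 110 ± 164 (SD, n = 3) in not/low-amplified tumours and a log2 fold change of 1.76 ± 1.23 (SE, edgeR adjusted p = 0.412). Lep followed at 1.51 ± 1.30, then Cidec at 1.02 ± 1.58 and Pparg at 0.80 ± 0.78. Adipoq stood at 0.52 ± 1.29, Plin1 at 0.48 ± 1.40 and Fabp4 at 0.27 ± 0.76. Cidea and Lpl had negative values, -0.29 ± 0.63 and -0.74 ± 0.88.

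All 9 genes passed the filter on low counts (at least 10 reads in at least 3 of the 8 tumours). Of these, 0 were called by edgeR's quasi-likelihood test, where a call means a Benjamini-Hochberg adjusted p under 0.05 and a log2 fold change beyond 1, against 0.921% of the 14007 genes tested. DESeq2 called 0 of the 9 against 8.82% of its genes, and limma 0 against 1.35%. Before adjustment 0 of the 9 had p under 0.05 in edgeR and DESeq2 and 1 had it in limma. Over all genes the shares were 22.8% in edgeR, 21.7% in DESeq2 and 21.8% in limma. In edgeR the median log2 fold change was 0.52 for the 9 genes and 0.02 for all genes tested. The levels of the 2 groups overlapped for each of the 9 genes, and the share of all genes that overlap was not counted. The differences were loosely bounded, an interval of 2 SE to either side running from -2.05 to 3.10 for Adipoq, from -0.70 to 4.22 for Plin4 and from -1.54 to 0.96 for Cidea. Their biological coefficient of variation was 0.62 for Cidea to 1.38 for Cidec, above the common value of 0.534 in all 9.

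Single tumours decided the size of this comparison. Without MS1349.1 all 9 genes had a positive log2 fold change, with a median of 4.09. Plin1 then reached 6.13 ± 1.34 (edgeR adjusted p = 0.0943), Cidec 6.40 ± 1.95 and Adipoq 4.09 ± 1.39, and 7 of the 9 had an unadjusted p under 0.05, against 19.4% of all genes in that fit, but none was called. Without MS1163.2 the median was -0.25 and 6 of the 9 genes were lower in the high-amplified tumours. Without MS1210.1 it was -0.02 and without MS1166.1 0.00408. With parity as a covariate the median was 0.05. The group comparison therefore changed size and direction with a single piece of tumour.

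**Figure D3:**
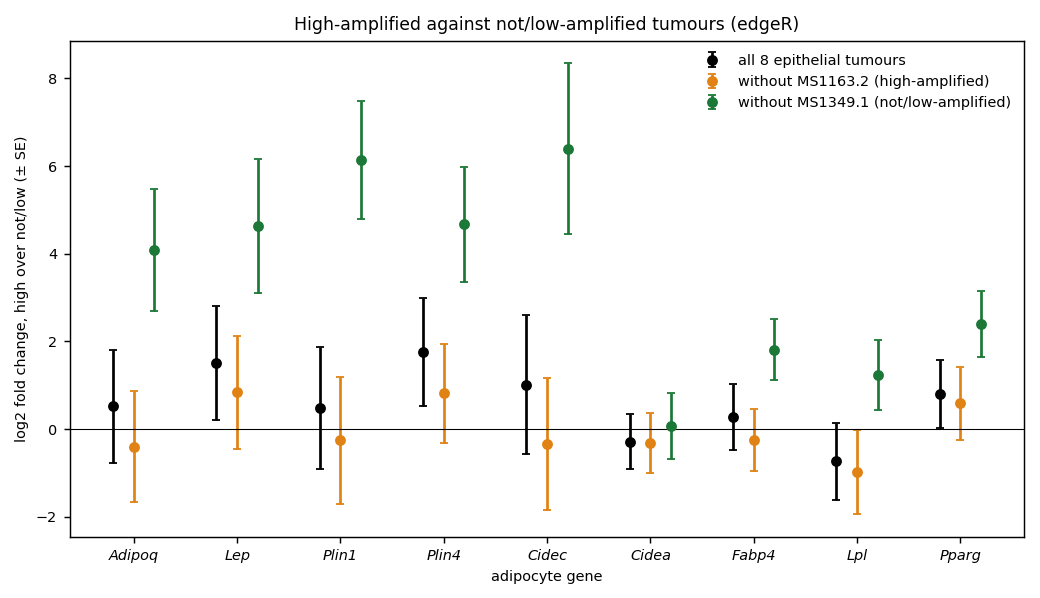
Log2 fold change of the 9 adipocyte genes between high-amplified and not/low-amplified tumours in edgeR, with bars of 1 SE, for all 8 epithelial tumours (black), without MS1163.2 (orange) and without MS1349.1 (green). Black and orange points lie between -0.98 and 1.76, and the green points of Plin1 and Cidec rise above 6 while that of Cidea stays at 0.07.

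Pregnancy reshapes the fat pad, so virgin tumours (MS1213.1, MS1163.1 and MS1163.2) were set against the 5 parous epithelial tumours. Lep had a log2 fold change of 1.84 ± 1.16 (edgeR adjusted p = 0.469), Plin4 of 1.55 ± 1.14, Cidec of 1.46 ± 1.47 and Adipoq of 1.18 ± 1.21. Cidea was at -0.51 ± 0.64 and Lpl at -0.70 ± 0.93. edgeR called 0 of the 9 genes, and 0% of all 14007. An unadjusted p under 0.05 was found for 0 of the 9, against 14.2% of all genes. DESeq2 also called 0, against 2.84% of its genes, and limma 0 against 0%. MS1163.2 again decided the direction, since without it 8 of the 9 genes were lower in virgin tumours, with a median log2 fold change of -0.66, against 0.69 with it. All virgin tumours were high-amplified, and MS1163.1 and MS1163.2 share an animal number. Within the high-amplified tumours alone, 3 virgin against 2 parous, the median was 0.65 and no gene was called.

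The 2 ASQC tumours, which contain squamous as well as glandular areas, lay at opposite ends of the range. MS1349.1 was among the 2 highest epithelial tumours for Adipoq, Plin1, Cidec, Fabp4, Cidea, Pparg and Lpl, whereas MS1210.1 was the lowest for Adipoq, Plin4 and Cidec. Against the 6 AC(NST) tumours, Lpl had the largest log2 fold change, 1.53 ± 0.83 (edgeR adjusted p = 0.636), and Plin4 was at -1.05 ± 1.46. edgeR called 0 of the 9 genes against 0.236% of the 14007 tested. An unadjusted p under 0.05 was found for 0 of the 9, against 8.72% of all genes. DESeq2 called 0 against 2.88% of its genes and limma 0 against 0.1%. Without MS1349.1 all 9 genes were lower in the remaining ASQC tumour, with a median of -4.28, a value for 1 tumour against 6. Without MS1210.1 the median was 0.76, and 8 of the 9 were higher.

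A list of 20 further adipocyte genes was read beside the 9. Of the 17 past the filter, edgeR called 0 in each of the 3 comparisons, with 0, 1 and 1 at an unadjusted p under 0.05 for amplification, parity and histotype. Over all genes, edgeR called 0.921%, 0% and 0.236%, and 22.8%, 14.2% and 8.72% had an unadjusted p under 0.05. DESeq2 called Cebpa in virgin against parous tumours, and limma called none. With Adipoq, 5 of the 20 had r over 0.9 across the 8 epithelial tumours, 7 had r between 0.5 and 0.9 and 8 had r under 0.5. The 4 genes of the list with the most normalized counts, not scaled for length, were in the last class, namely Cd36, a fatty acid transporter, at 0.34, the lipase gene Pnpla2 at -0.30, the transcription factor gene Cebpa at -0.60 and the lipase inhibitor gene G0s2 at 0.07. The 5 genes over 0.9, named after their values were seen, were Acvr1c, Retn (resistin), Car3 (a carbonic anhydrase abundant in fat), Pck1 and Cfd (adipsin). Car3 had 2549 in MS1163.2 and 1810 in MS1349.1 but 1.41 in MS1210.1 and 21.4 in MS1166.1, and Cfd had 948, 902, 1.41 and 25.0 in the same tumours. Cd36 peaked elsewhere, at 4007 in MS1349.1 and 3575 in MS1218.2.

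Among the 14007 genes past the filter, those whose profile was most like the mean standardized profile of the 9 were, by Pearson r over the 8 epithelial tumours, Amot, Glb1l2, Ankef1, Acvr1c, Zim1, Gpt2, Car3, Ces1d, Slc7a10 and Cfd, with r from 0.96 to 0.93. The gene of the glycerol channel Aqp7, of the list above, did not pass the filter and so could not be ranked, though its r was 0.996. Without MS1166.1 and MS1210.1, r of these 10 genes was 0.79 to 0.96. Acvr1c, Car3 and Cfd also stood on the list of further adipocyte genes. Amot, which encodes the junction protein angiomotin, had a narrow range, from 294 in MS1166.1 to 911 in MS1163.2. Ces1d, a carboxylesterase gene, ran from 0 in MS1210.1 to 124 in MS1163.2.

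Related droplet and carrier genes moved otherwise. Plin2, the perilipin of non-adipocyte and milk-secreting cells, had an r of 0.16 with Adipoq and peaked at 17301 in MS1349.1 and 10952 in MS1218.2. Plin3 had r = -0.29 and Fabp5, the epidermal fatty acid binding protein, r = 0.49. Fabp3, the heart and mammary carrier, was 3399 in MS1349.1, 124 in the sarcoma and no more than 19.4 elsewhere. Of the 4 genes of this group past the filter, edgeR called 0 in any comparison, with 0 at an unadjusted p under 0.05. Fabp3 was not past the filter, and DESeq2, run without it, called Fabp3 in ASQC against AC(NST). Of 10 genes of lipid synthesis and secretion, listed for the alveolar epithelium, 6 had their highest epithelial level in MS1349.1. Fasn at 32349.6 and Xdh at 19059 were among them, so that tumour was high both for adipocyte genes and for these lipid genes. With Adipoq, the 10 genes had r of 0.20 to 0.74, and the cells from which their RNA came were not tested.

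Genes that act with the members were present throughout. Of the proteins that make, carry or restrain lipoprotein lipase, 6 of 7 genes were tested and all 6 had positive log2 fold changes in high-amplified tumours, with a median of 0.85, 3 with an unadjusted p under 0.05 and 0 called in edgeR. Over all genes 22.8% had an unadjusted p under 0.05. DESeq2 called Sel1l and Vldlr for amplification, and Sel1l also in virgin against parous tumours. Sel1l, which helps the lipase leave the endoplasmic reticulum, was 4818 to 26176 in high-amplified and 2603 to 3704 in not/low-amplified tumours. Among the partners of PPARG, 7 of 10 genes had positive values with a median of 0.59, and 6 of 10 had an unadjusted p under 0.05 in edgeR, which called 0, whereas DESeq2 called Ebf1, Ebf2, Klf15 and Srebf1. Rxra, the gene of its dimer partner, lay between 1443 in MS1163.2 and 3670.4 in MS1218.2, and was thus lowest of the epithelial tumours where Pparg was highest. The adiponectin receptor genes Adipor1 and Adipor2 ranged from 1941 to 4949.5 and from 1342 to 2328 in the epithelial tumours, and edgeR called 0 of the 4 receptor genes for adiponectin and leptin, with 0 at an unadjusted p under 0.05.

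Marker genes of other cells were set beside the adipocyte sums. With Adipoq, the 8 macrophage genes had r of -0.46 to 0.42, the 8 endothelial genes -0.37 to 0.33 and the 8 fibroblast and preadipocyte genes -0.40 to 0.44. Epithelial genes had r of -0.81 to -0.27. Of 8 brown fat genes, 0 had their highest epithelial level in MS1163.2 and 1, Elovl3, in MS1349.1. Only 4 of the 8 passed the filter. Zic1 had no read in any epithelial tumour, and Elovl3 had reads only in MS1210.1 and MS1349.1 among them. Ucp1, the uncoupling protein of brown fat, was 0 in MS1163.2 and 2.19 in MS1349.1, with its highest level, 24.1, in MS1163.1, where 23 reads lay behind it. Among the 8 epithelial tumours, muscle genes peaked in MS1163.2 for 6 of 7, with Ttn at 23637 and Myh4, a fast muscle myosin gene, at 1662, whereas MS1349.1 had 59.9 of Ttn and no Myh4 read. High adipocyte RNA therefore came with muscle RNA in MS1163.2 and without it in MS1349.1. Over all 12 lists beside the 9 genes, 88 genes were tested by edgeR and 0 were called, with 18, 16 and 7 (20.5%, 18.2% and 7.95%) at an unadjusted p under 0.05 for amplification, parity and histotype. Over all genes tested, those shares were 22.8%, 14.2% and 8.72%. DESeq2, which tested 86, 90 and 86 genes of the lists, called 14, 6 and 5, and limma called 0 of 88 in each comparison.

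**Figure D4:**
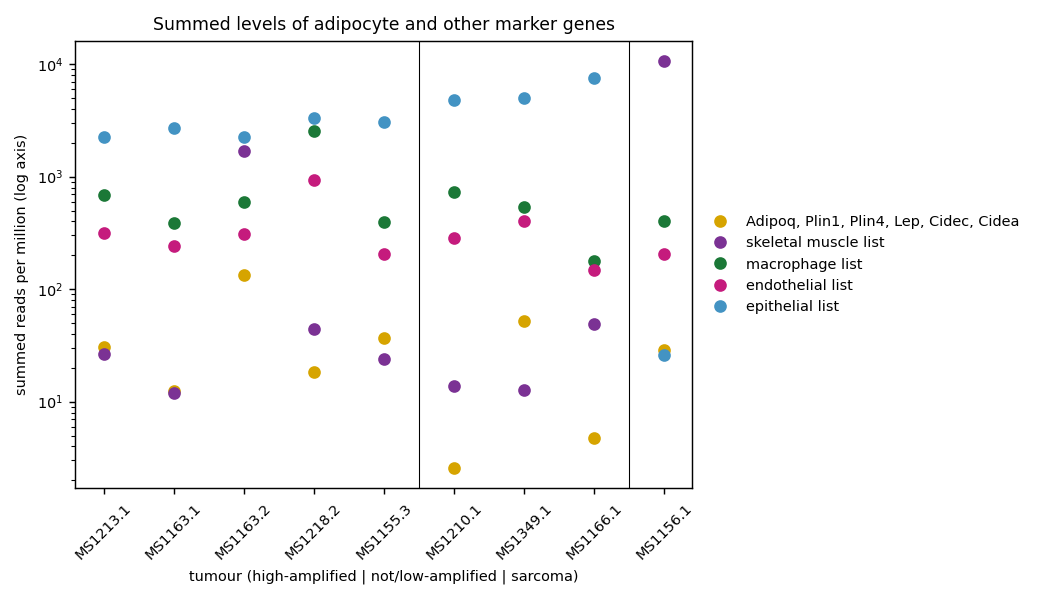
Summed RPM (log axis) of 6 adipocyte genes (Adipoq, Plin1, Plin4, Lep, Cidec and Cidea) and of the skeletal muscle, macrophage, endothelial and epithelial lists in each tumour, with 1 point per list and tumour. The adipocyte sum runs from 2.57 in MS1210.1 to 134 in MS1163.2, and the muscle sum reaches 1694 in MS1163.2 and 10651 in the sarcoma.

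The sarcoma had no test, being a single tumour, and its values were put on the scale of the others by its own size factor. It combined low Adipoq, Lep, Plin1, Cidec and Pparg, at 0.181 to 0.414 times the epithelial medians, and Fabp4 near the median at 0.880 times, with high Plin4 and Lpl at 2.47 and 5.67 times. Of its 239 RPM in the 9 genes, 81.9% belonged to Lpl and 10.9% to Plin4, against 26.5% and 24.6% in MS1163.2. The fibroblast and preadipocyte list, in which Dcn (decorin) had 24799.7, summed to 9115 RPM in the sarcoma, and the part of these cells and of muscle in its Lpl was not tested.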

How the data were processed

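Total RNA of 9 snap-frozen tumours was sequenced by the authors as rRNA-depleted, strand-specific paired libraries, aligned with STAR (unique reads, at most 3 mismatches, unstranded setting) to mouse build 38 and counted with HTSeq. The strand setting of the counting is not given in the sources used here, so an antisense or overlapping gene cannot be told apart. Deposited count values are whole reads per gene, 12501225 to 23912429 in all per tumour. Deposited signal values of the 8 epithelial tumours are these counts divided by 1 DESeq2 size factor per tumour (0.776 to 1.42). The sarcoma was scaled here by its own median of ratios to the 8 (0.704). Genes and lists were chosen with earlier results of these data known. Named are the 9 genes and the 10 genes of most similar profile. From the lists, some but not all of the 4 most abundant genes and of the genes called by DESeq2 are named. Others were singled out after their values were seen.

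Tests used edgeR 4.0.16 (TMM, quasi-likelihood, genes with at least 10 reads in at least 3 tumours, Benjamini-Hochberg) under R 4.3.3 on the 8 epithelial tumours, without covariates, after a test on simulated data. The SE given for edgeR is the absolute log2 fold change divided by the square root of the quasi-likelihood F statistic, and is approximate. DESeq2 1.42.0, limma 3.58.1 on log2(normalized count + 1), other scalings and filters, parity and single tumours left out were alternatives. MS1163.1 and MS1163.2 may come from 1 mouse, and p-values measure the spread between these tumours. Bounds of 3 reads cover counting error only. Positions and exon lengths are from GENCODE M21, and promoters from RefSeq. Cox8b, Cox7a1, Cebpd and Acta1, which the lists also held, were not analysed here. Python 3.11.15, pandas 2.3.3 and matplotlib were used for summaries and plots.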

Additional observations from a re-analysis of the deposited data

Results flagged for a closer look

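Among the 5 high-amplified tumours, MS1163.2 stood apart from the other 4 for Adipoq (normalized count 242, next highest 68.4), Plin4 (1116, next 307) and Cidec (324, next 74.7), and for the summed level of the 9 genes (292.0 RPM, next 112). The summed skeletal muscle genes were also apart in MS1163.2, at 1694 RPM. MS1218.2 stood apart for the summed macrophage (2538), endothelial (936), fibroblast and preadipocyte (9017) and related perilipin, CIDE and FABP genes (925 RPM). In each case the gap to the nearest tumour, divided by the range of the 5, exceeded Dixon's 95% critical value. Of 22 sets of 5 values examined (9 genes and 13 sums), 9 were apart. Chance alone flags about 1 in 20 where values are normally distributed. These values were not log-transformed, so the chance rate for them is not known and 9 of 22 cannot be set against it. The sets are also not independent, since they share tumours and genes.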

How the results depend on the processing

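The number of adipocyte genes called was 0 in all 3 comparisons under every alternative run, each tumour left out in turn included. The calls over all genes in high against not/low amplification were 129 in edgeR, 1591 in DESeq2, 189 in limma, 229 with no filter, 31 with MS1163.1 and MS1163.2 summed, 0 with parity as a covariate or in parous tumours alone, and 1 (without MS1210.1) to 1255 (without MS1218.2) with a tumour left out. Over ASQC against AC(NST), the 33 calls became 518 in DESeq2, 171 with no filter and 4 to 84 with a tumour left out, and virgin against parous went from 0 to 511 in DESeq2 and to 147 without MS1155.3. The cause was not tested.

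Direction was less stable than the calls. Changes of sign were counted only in high against not/low amplification. There, of 78 log2 fold changes of the 9 genes from other settings, 6 changed sign. They were Adipoq (-0.609) and Cidec (-0.0423) with parity as a covariate, Adipoq (-0.575), Cidec (-0.00746) and Cidea (0.0278) in parous tumours alone, and Lpl in limma (0.382). The median of the 9 genes was 0.52 in edgeR and 1.57 in limma for amplification, and 0.69 and 1.82 for virgin against parous. For ASQC against AC(NST) it was 0.23 in edgeR and -0.60 in limma. With a tumour left out, 11 of 72 changed sign, and the values ran from -0.399 to 4.09 for Adipoq, 0.837 to 4.63 for Lep, -0.251 to 6.13 for Plin1, 0.821 to 4.67 for Plin4, -0.337 to 6.40 for Cidec, -0.742 to 0.0661 for Cidea, -0.244 to 1.81 for Fabp4, -1.29 to 1.23 for Lpl and 0.322 to 2.40 for Pparg, each upper end without MS1349.1.

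The highest summed level over the median of the others, 3.12 for MS1163.2, was 3.53 per kilobase of exon, 5.72 without Fabp4, Pparg and Lpl, and 3.32 in normalized counts, where MS1349.1 and not MS1163.2 was highest. No paired analysis was possible because the labels give the tumours no shared replicate numbers. The low levels of Lep, Plin1 and Cidec in MS1210.1 and MS1166.1 rest on 0 to 2 reads.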

Other observations

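Some genes of the lists peaked in a single tumour apart from Adipoq. They were chosen after their values were seen and none was called by edgeR. Of the genes named here, DESeq2 called Dio2, Prdm16 and Ebf2 for amplification, Prdm16 for parity and Dio2 for histotype. Dio2, the deiodinase that activates thyroid hormone in brown fat, had a normalized count of 2066 in MS1210.1, where Adipoq had 2.81, and 98.2 to 449 in the other epithelial tumours. Prdm16, a regulator of brown fat identity, had 809 in MS1166.1 and 14.9 in MS1163.2. Sncg, a synuclein gene also used by adipocytes, had 369 in MS1166.1, where Adipoq had 7.14, and at most 99.1 in the other epithelial tumours. Sfrp5, which encodes a secreted WNT antagonist made by adipocytes, had 404 in MS1349.1 and at most 15.7 in the other epithelial tumours. The sarcoma held 3322 of Sfrp5, 3361 of the leptin receptor gene Lepr, 2441 of the preadipocyte factor gene Ebf2 and 3493 of Fabp7, with 8.52 of Adipoq and 4.26 of Lep.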
